A study of Mus musculus with 5 samples.

Results

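The genes examined were 41 mouse genes of the cell cycle and DNA replication, taken by symbol from a list that no threshold on these values defined, though earlier results of these data were known when it was made. All 41 were found among the 22176 gene symbols with a value in the deposited tables. The list was read in 3 classes: 23 genes that act in G2 and mitosis, 16 genes of the G1/S transition and of DNA synthesis, and 2 others, Hmgb2 and Stmn1, which are abundant in proliferating cells without belonging to either phase alone. The libraries were RNA-seq of regulatory T cells (Tregs), the Foxp3-expressing CD4+ T cells that restrain immune responses, sorted from lymph node or adipose tissue of C57BL/6 mice. Every mouse carried Foxp3Cre, a Cre recombinase driven by Foxp3 and so active in Foxp3-expressing cells. At 4 months of age there were 3 libraries: lymph node (LN) Tregs of Foxp3Cre mice, adipose Tregs of Foxp3Cre mice, and adipose Tregs of obese Foxp3Cre mice, whose sample title carries the letters HFD. At 10 months there were 2: adipose Tregs of Foxp3Cre mice and adipose Tregs of Med23fl/fl;Foxp3Cre mice, in which Foxp3Cre can excise the floxed Med23 gene, a subunit of the Mediator complex of transcription. The word lean stands for the 4-month adipose library whose labels mention no obesity. The sources used here do not give the sorting gate, the adipose depot or the number of mice pooled per library. Each group was 1 library, so no difference below has a replicate check or a test between conditions, and "higher" and "lower" describe these libraries only.

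A dividing cell copies its genome in S phase and separates the copies in mitosis. Before S phase, Cdc6 and Cdt1 load the MCM helicase onto replication origins, cyclin E starts firing, and factors of the E2F family switch on the genes of nucleotide synthesis and of the replication fork. Later, cyclin A and cyclin B with Cdk1 drive mitosis, the spindle checkpoint holds chromosomes until they are attached, and the anaphase-promoting complex then destroys the cyclins. Promoters of many mitotic genes carry CCAAT boxes, bound by NF-Y, and a cell cycle homology region (CHR) read by the DREAM and MuvB complexes. Tregs that settle in visceral adipose tissue are known to expand there and to support metabolic health.

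The 5 libraries held between 4595046 and 9694474 reads assigned to genes, recovered from the deposited scaled counts, and listed between 10666 and 13632 genes above 0. Of genes at 20 counts per 1000000 (CPM) or more in the other 4 libraries, 1.46% were listed at 0 in LN, 0.587% in lean adipose, 0.0806% in 10-month Foxp3Cre and 1.79% in the Med23 KO-labelled library, against 0 of 3578 in obese adipose. Genes that most cells use could also be low: Gapdh stood at 1.05 CPM in lean adipose and 10.7 in obese adipose, against 548 to 979 in the other 3. Med23 went against its label, at 15.5 CPM in the library labelled Med23 KO against 6.32 for 10-month Foxp3Cre. The sources used here do not say which exons are floxed, so reads from the remaining exons were not separated and every direction drawn from that library rests on its label. All 7 Treg markers were above 0 in every library, with a summed level of 6099 to 8233 CPM, though Foxp3 was at 52.5 CPM in LN against 155 to 216 in the adipose libraries. Markers of other cells also varied. The 11 macrophage and dendritic cell markers summed to 7.01 CPM in LN with 1 of 11 above 0, 887 in lean adipose with 9 of 11, 4899 in obese adipose with all 11, 658 in 10-month Foxp3Cre with 9 of 11, and 108 in the library labelled Med23 KO with 6 of 11, where Cd68, Csf1r, Mrc1, C1qa and Fcgr1 were at 0. The 7 fibroblast and mesothelial markers summed to 982 CPM in lean adipose and to 0 to 48.9 in the other 4. The erythroid markers summed to 0 CPM in LN, 407 to 726 in lean, obese and 10-month Foxp3Cre adipose, and 4667 in the library labelled Med23 KO, with Hbb-b1 at 0 throughout. Lists for B cells, CD8 T and NK cells, endothelium, adipocytes and granulocytes or mast cells each summed to no more than 185 CPM in any library, and 3 of 4 endothelial markers, Cdh5, Kdr and Tie1, were at 0 throughout. Xist stood at 228 to 602 CPM in LN and both 10-month libraries and at 0 and 3.60 in lean and obese adipose, where the Y-linked Ddx3y stood at 560 and 562, so the libraries also differed in sex-linked genes. The part of other cells, or of this split, in any result below was not tested.

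Promoters are shown here because the mitosis and S phase classes differ in several of the comparisons that follow. All comparisons with lean adipose use the same single lean library, so they do not repeat each other independently. A RefSeq promoter (GRCm38.p6) was held by 33 of the 41 genes, and the 250 bases before the start were searched on both strands for CCAAT, for the CHR letters TTTGAA, and for E2F as TTTGGCGC, TTTGCCGC, TTTCGCGC or TTTCCCGC. The 6 below were chosen after the values were seen, 4 from mitosis genes with low values in lean adipose and 2 from S phase genes. They read 5′ to 3′ on the strand of the gene, with matches in capitals. A match on the opposite strand shows as ATTGG for CCAAT, as TTCAAA for the CHR letters, or as the reverse complement of an E2F motif.
Ccnb2: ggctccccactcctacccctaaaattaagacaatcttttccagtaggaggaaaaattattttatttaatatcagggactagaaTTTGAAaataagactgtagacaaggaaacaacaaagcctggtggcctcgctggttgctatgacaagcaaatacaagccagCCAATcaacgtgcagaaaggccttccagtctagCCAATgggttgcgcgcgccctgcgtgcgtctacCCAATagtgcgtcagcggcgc
Cdca8: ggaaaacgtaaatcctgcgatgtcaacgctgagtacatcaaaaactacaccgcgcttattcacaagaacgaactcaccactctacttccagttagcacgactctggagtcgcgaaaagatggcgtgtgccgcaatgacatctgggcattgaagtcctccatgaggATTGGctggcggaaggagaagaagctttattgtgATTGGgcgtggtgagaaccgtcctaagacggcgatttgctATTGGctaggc
Cdc20: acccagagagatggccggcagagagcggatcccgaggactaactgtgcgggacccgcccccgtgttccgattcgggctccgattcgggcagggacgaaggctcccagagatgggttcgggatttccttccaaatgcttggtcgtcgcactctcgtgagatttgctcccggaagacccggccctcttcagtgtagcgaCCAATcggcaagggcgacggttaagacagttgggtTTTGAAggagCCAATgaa
Kif11: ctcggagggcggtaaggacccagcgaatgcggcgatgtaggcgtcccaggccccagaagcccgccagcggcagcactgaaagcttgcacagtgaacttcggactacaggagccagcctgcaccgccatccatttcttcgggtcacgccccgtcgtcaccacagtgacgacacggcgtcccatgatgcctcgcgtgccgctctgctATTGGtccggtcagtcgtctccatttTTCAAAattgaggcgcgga
Mcm6: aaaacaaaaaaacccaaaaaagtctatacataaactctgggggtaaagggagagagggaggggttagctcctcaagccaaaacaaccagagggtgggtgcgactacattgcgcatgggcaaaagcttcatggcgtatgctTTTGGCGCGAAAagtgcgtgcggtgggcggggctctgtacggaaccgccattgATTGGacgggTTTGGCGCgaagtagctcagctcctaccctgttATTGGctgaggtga
Cdc6: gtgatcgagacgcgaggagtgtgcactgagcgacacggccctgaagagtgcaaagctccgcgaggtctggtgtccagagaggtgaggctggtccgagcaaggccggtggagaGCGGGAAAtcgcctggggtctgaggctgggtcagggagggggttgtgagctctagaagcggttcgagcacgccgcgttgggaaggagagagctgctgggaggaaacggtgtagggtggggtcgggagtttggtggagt

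The Ccnb2 window lies at chr9:70421555-70421804 on the minus strand and holds 3 CCAAT boxes and 1 match to the CHR letters. That match lies upstream of all 3 CCAAT boxes, and whether it acts as a CHR was not tested. The Cdca8 window, at chr4:124936918-124937167 on the minus strand, holds 3 CCAAT boxes, all on the opposite strand, and no CHR letters. The Cdc20 window, at chr4:118437344-118437593 on the minus strand, has 2 CCAAT boxes with the CHR letters between them. The Kif11 window, at chr19:37376132-37376381 on the plus strand, has 1 CCAAT box and 1 match to the CHR letters. Mcm6, at chr1:128359706-128359955 on the minus strand, has 3 E2F matches, of which the first 2 overlap on opposite strands, and 2 CCAAT boxes. Cdc6, at chr11:98907901-98908150 on the plus strand, has 1 E2F match and neither of the other motifs. No match to one motif overlapped a match to another in the promoters of these genes. Of 19 mitosis promoters, 17 held a CCAAT box (89.5%), 12 held 2 or more (63.2%), 7 held TTTGAA (36.8%) and 1 held an E2F motif (5.26%). Of 14 S phase promoters, from 13 genes, 9 held a CCAAT box (64.3%), 5 held 2 or more (35.7%), 1 held TTTGAA (7.14%) and 4 held an E2F motif (28.6%). Among 21262 promoters of protein-coding genes the shares were 35.4% for CCAAT, 11.4% for 2 or more, 14.5% for TTTGAA and 2.35% for E2F. The shares thus stood highest for CCAAT and TTTGAA in the mitosis class and for E2F in the S phase class, as a description of letters and not of binding. Median GC content was 59.6% over mitosis promoters, 56.8% over S phase promoters and 55.6% over protein-coding promoters.

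Across the libraries, 34 of the 41 genes were above 0 in LN, 24 in lean and 37 in obese adipose, 36 in 10-month Foxp3Cre, and also 37 in the library labelled Med23 KO. The mitosis class varied more: 18 of 23 were above 0 in LN, 10 in lean adipose and 19 in each of the other 3, while the S phase class ran from 12 of 16 in lean adipose to 14 to 16 elsewhere. Only 7 of 23 mitosis genes were above 0 in all 5 libraries, against 12 of 16 S phase genes and both others. Where Aurka and Plk1 had no value, they were counted as not above 0. The share above 0 in all 5 libraries was not counted over all genes, so these counts only describe the members. Over all 22176 gene symbols, 10666 were above 0 in LN, 11410 in lean and 13632 in obese adipose. The 10-month Foxp3Cre library had 11592 above 0 and the library labelled Med23 KO 10784. Lean adipose alone held the lowest level for 10 mitosis genes and 7 S phase genes. The library labelled Med23 KO held the highest level for 12 of 16 S phase genes and 7 of 23 mitosis genes, and LN was the highest for 7 mitosis and 2 S phase genes. How often each library was lowest or highest was not counted over all genes, so these counts only describe the members. In bulk RNA, fewer cycling cells and less RNA of a gene per cell cannot be told apart. All levels below are CPM, each deposited column rescaled to the same sum, and compare 1 gene between libraries, never genes with each other.

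**Figure D1:**
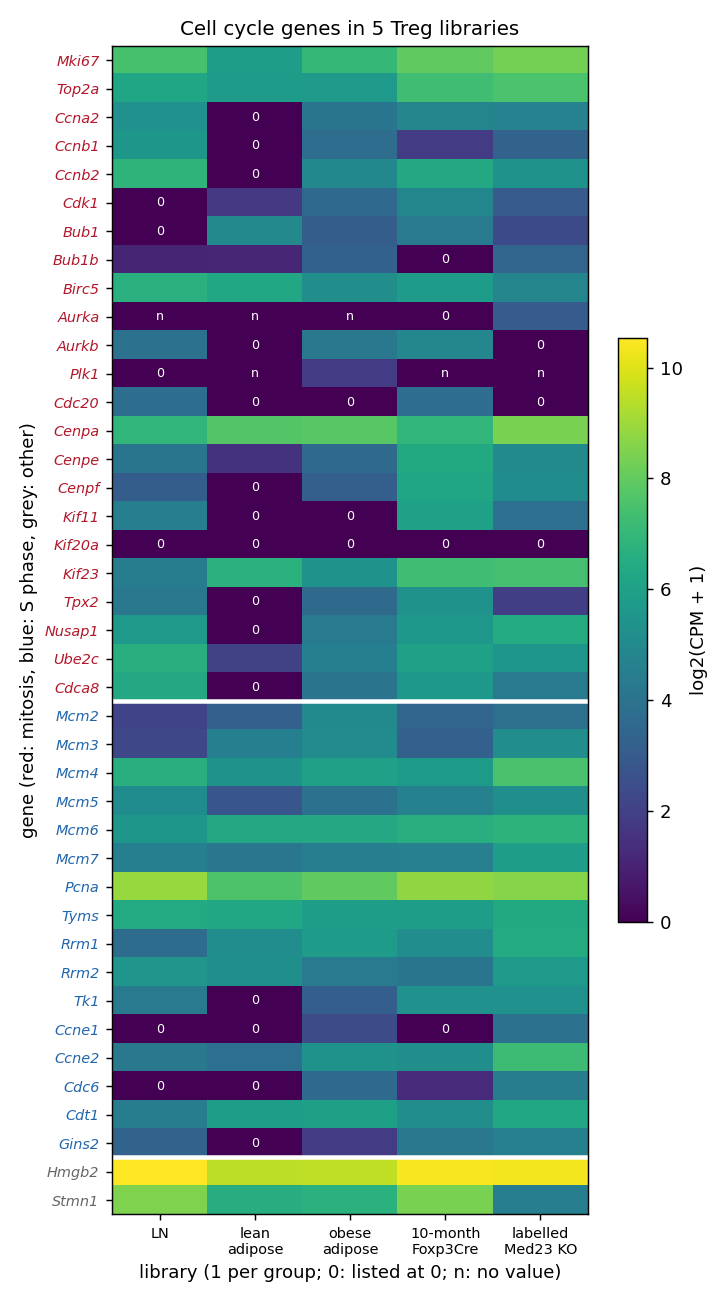
Level of each of the 41 genes (rows) in each of the 5 libraries (columns, 1 per group), as log2(CPM + 1) by colour; 0 marks a value listed at 0 and n a gene with no value in that table. The lean adipose column holds the most zeros, 10 of them in mitosis genes that LN lists above 0.

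Among the cyclins and kinases of mitosis, Ccnb2, cyclin B2, was at 115 CPM in LN, 0 in lean and 29.1 in obese adipose, 81.9 in 10-month Foxp3Cre, and at 40.0 in the library labelled Med23 KO. Ccna2, cyclin A2, was at 39.6, 0, 15.9, 26.9 and 24.2 CPM in the same order of libraries. Ccnb1, cyclin B1, was at 47.0 CPM in LN, 0 in lean and 12.7 in obese adipose, 2.69 in 10-month Foxp3Cre, and at 9.14 in the library labelled Med23 KO. The 3 cyclins thus shared their highest and their lowest library but not the order between, since 10-month Foxp3Cre came next to the highest for Ccnb2 and Ccna2 and next to the lowest for Ccnb1. Their partner Cdk1 ran otherwise, at 0 CPM in LN, 2.34 in lean and 11.1 in obese adipose, 27.7 in 10-month Foxp3Cre, and at 7.18 in the library labelled Med23 KO. Cdk1 was thus lowest in LN, where Ccnb2 was highest. Plk1, the polo-like kinase, was above 0 in obese adipose alone, at 2.67 CPM, and Aurka, a kinase of the spindle poles, in the library labelled Med23 KO alone, at 7.40 CPM. Both had no value in at least 1 table, so their levels there are unknown.

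Mki67, the gene of a widely used proliferation marker, was at 175 CPM in LN, 57.1 in lean and 128 in obese adipose, 248 in 10-month Foxp3Cre, and at 323 in the library labelled Med23 KO. Top2a, the topoisomerase that untangles sister chromatids, was at 71.4, 55.3, 49.5, 156 and 189 CPM in the same order. Both were lower in every 4-month library than in either 10-month library. Kif23, a motor of the midbody in cytokinesis, was at 20.2 CPM in LN, 104 in lean and 41.6 in obese adipose, 158 in 10-month Foxp3Cre, and at 170 in the library labelled Med23 KO, so LN and not lean adipose was lowest. Kif20a, another cytokinesis motor, was listed at 0 in all 5.

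In the kinetochore and checkpoint group, Cenpe, a kinesin that aligns chromosomes, was at 15.99 CPM in LN, 1.87 in lean and 11.5 in obese adipose, 83.3 in 10-month Foxp3Cre, and at 32.0 in the library labelled Med23 KO. Cenpf, a kinetochore protein, was at 7.63, 0, 8.004, 72.0 and 34.2 CPM in the same order. Cenpa, the histone variant that marks centromeres, was at 122 CPM in LN, 210 in lean and 220 in obese adipose, 120 in 10-month Foxp3Cre, and at 341 in the library labelled Med23 KO. Cenpa thus did not share the lean minimum of Cenpe and Cenpf. Bub1, a checkpoint kinase, was highest in lean adipose at 30.2 CPM and at 0 in LN, with 7.60, 18.9 and 4.13 in obese, 10-month Foxp3Cre and labelled libraries. Bub1b, the checkpoint protein BubR1, stayed between 0 and 9.79 CPM.

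The chromosomal passenger complex, which corrects attachments and guides cytokinesis, gave Cdca8 (borealin) at 80.5 CPM in LN, 0 in lean and 15.7 in obese adipose, 48.6 in 10-month Foxp3Cre, and at 18.7 in the library labelled Med23 KO. Its kinase Aurkb was at 14.6, 0, 17.3, 28.6 and 0 CPM in the same order. Its subunit Birc5 (survivin) was at 101, 78.8, 36.3, 56.3 and 26.3 CPM. Subunits of 1 complex thus differed in lean adipose, where Birc5 was the only one of the 3 above 0. Among spindle proteins, Kif11, the motor that pushes the poles apart, was at 21.7 CPM in LN, 0 in lean and obese adipose, 63.6 in 10-month Foxp3Cre, and at 13.3 in the library labelled Med23 KO. Tpx2, which activates Aurka, was at 17.5, 0, 11.3, 41.9 and 2.83 CPM, and Nusap1, which bundles spindle microtubules, at 51.0, 0, 19.2, 48.6 and 87.9 CPM. All 3 spindle genes were at 0 in lean adipose. Cdc20, the activator of the anaphase-promoting complex, was at 12.9 CPM in LN, 12.5 in 10-month Foxp3Cre and 0 in the other 3. Ube2c, the E2 enzyme of that complex, was at 98.7, 3.28, 22.1, 63.3 and 45.7 CPM, again lowest in lean adipose.

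For origin licensing, Cdc6 was at 0 CPM in LN and lean adipose, 11.1 in obese adipose, 1.45 in 10-month Foxp3Cre, and at 21.3 in the library labelled Med23 KO. Cdt1 was at 20.4, 56.4, 61.8, 35.5 and 76.6 CPM in the same order, so both licensing genes were highest in the labelled library. The cyclins of S phase entry, Ccne1 and Ccne2, were also highest there: Ccne1 was at 14.1 CPM against 4.27 in obese adipose and 0 in the other 3, and Ccne2 at 148 CPM against 17.6 in LN, 13.3 and 39.8 in lean and obese adipose and 36.1 in 10-month Foxp3Cre. Of the 6 MCM helicase subunits, Mcm4 was at 96.7 CPM in LN, 41.4 in lean and 63.6 in obese adipose, 52.4 in 10-month Foxp3Cre, and at 179 in the library labelled Med23 KO. Mcm5 was at 34.2, 6.09, 14.4, 23.5 and 37.0 CPM, and Mcm3 at 3.82, 22.6, 32.9, 8.39 and 34.8 CPM. Subunits of the same ring therefore did not share 1 order of libraries: Mcm5 was lowest in lean adipose, and Mcm3, Mcm2 and Mcm6 were lowest in LN. Mcm2 ranged from 3.40 to 32.0 CPM, Mcm6 from 46.1 to 110 and Mcm7 from 16.5 to 57.9. Gins2, a further helicase subunit, was at 0 CPM in lean adipose and 2.53 to 23.3 elsewhere.

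Pcna, the sliding clamp of the polymerases, was at 480 CPM in LN, 193 in lean and 250 in obese adipose, 433 in 10-month Foxp3Cre, and at 394 in the library labelled Med23 KO. In nucleotide synthesis, Tk1, thymidine kinase, was at 19.3, 0, 7.74, 39.7 and 39.0 CPM in the same order. Rrm1 and Rrm2 encode the subunits of ribonucleotide reductase. Rrm1 was at 12.2, 35.2, 55.4, 35.1 and 88.1 CPM, whereas Rrm2 was at 44.6, 37.1, 18.5, 15.96 and 50.5 CPM. The enzyme's subunits thus shared their highest library and differed in their lowest. Tyms, thymidylate synthase, had the narrowest range of the 16 S phase genes by fold, between 57.5 and 86.6 CPM. Of the other members, Hmgb2, a chromatin protein, was at 1479 CPM in LN, 712 in lean and 730 in obese adipose, 1381 in 10-month Foxp3Cre, and at 1292 in the library labelled Med23 KO. Stmn1, stathmin, a protein that destabilises microtubules, was at 358, 92.6, 105, 341 and 21.8 CPM, lowest in the library labelled Med23 KO.

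Lean adipose and LN were compared within their own table, the contrast of tissue at 4 months. Tissue and the split in Xist and Ddx3y cannot be told apart in it. Of the 36 members measured, meaning at a scaled count of 1 or more in either library, 6 reached 2-fold higher levels in lean adipose and 20 reached 2-fold lower ones, and their median log2 ratio was -1.40. Over all 13540 genes measured, 37.6% were 2-fold higher and 32.1% 2-fold lower, and the median was 0.14. All log2 ratios here are of (scaled count + 1), so a gene with a fold just over 2 can miss the 2-fold counts. The mitosis class was lower: 13 of 20 measured were 2-fold lower and 3, Cdk1, Bub1 and Kif23, 2-fold higher, with a median of -3.52. In the S phase class 5 of 14 were 2-fold lower (Mcm4, Mcm5, Pcna, Tk1 and Gins2), near the 32.1% over all genes. By the same ratio 3 were 2-fold higher (Mcm3, Rrm1 and Cdt1), and the median was -0.45. Mcm2 missed that count at a log2 ratio of 0.98, though it was 2.24-fold higher (1.47 to 3.50) without the added 1. A median that counts genes with no read at their bound was -4.61 for mitosis and -0.47 for S phase. The S phase median was 0.65 without 5 measured genes that share sequence with others, so its sign is not settled. For single genes the fold is of the scaled counts themselves, with an exact 95% interval that covers counting error only, and a gene with no read takes a floor of 3 reads in that library.

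By the reads recovered from the authors' deposited table, Ccnb2 had 1111 reads in LN and none in lean adipose, at least 360-fold lower, and Cdca8 had 780 and none, at least 253-fold lower. Nusap1 was at least 160-fold lower and Kif11 at least 68.0-fold lower. Cdc20 had 125 reads in LN and 3 in lean adipose, 40.5-fold lower (13.5 to 199). Ube2c had 957 reads in LN and 28 in lean adipose, 33.2-fold lower (22.8 to 50.3). Among genes with many reads in both libraries, Mki67 was 3.39-fold lower in lean adipose (3.06 to 3.75) and Top2a 1.43-fold lower (1.27 to 1.61). The lean library held 8540594 reads and LN 9694474. On the higher side, Kif23 was 4.67-fold higher in lean adipose (4.00 to 5.48) and Cenpa 1.56-fold higher (1.45 to 1.68). In the S phase class Mcm3 was 5.37-fold higher (3.76 to 7.85) and Rrm1 2.62-fold higher (2.11 to 3.27), while Mcm5 was 6.21-fold lower (4.62 to 8.48) and Pcna 2.75-fold lower (2.60 to 2.91). Genes whose interval excluded 1, taken with genes that had a bound only, were 15 lower and 4 higher in the mitosis class. In the S phase class they were 9 lower and 5 higher. The 8 with a bound and no interval were Ccnb2, Bub1, Aurkb, Kif11, Tpx2, Nusap1, Cdca8 and Tk1. The same counts were not made over all genes. Stmn1 was 4.26-fold lower (3.94 to 4.61) and Hmgb2 2.29-fold lower (2.22 to 2.36). Fibroblast markers stood at 982 CPM in lean adipose and 8.56 in LN beside these differences, and macrophage and dendritic cell markers at 887 and 7.01; their part was not tested.

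**Figure D2:**
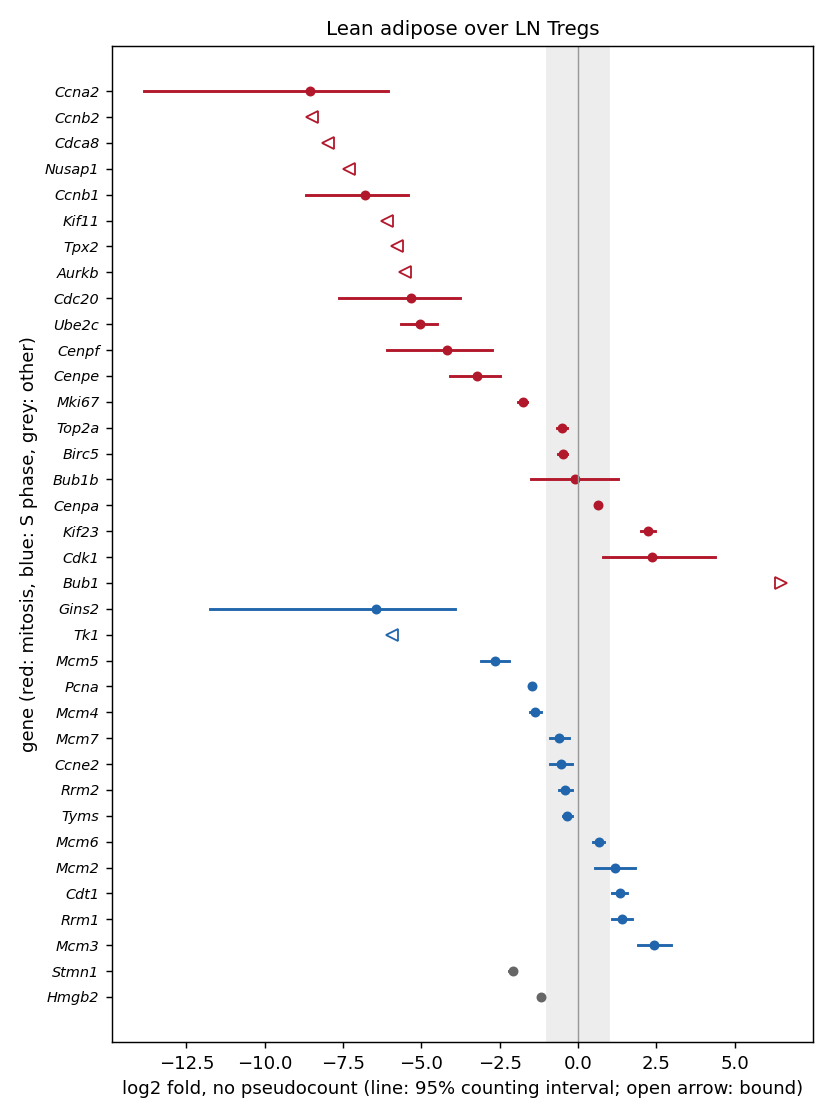
Log2 fold of lean adipose over LN for each of the 36 measured genes (rows), without pseudocount; lines are exact 95% counting intervals and open arrows mark the 8 genes with a bound in place of a value. Mitosis genes lie mostly left of 0 and reach further than S phase genes, which lie on both sides.

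Obese adipose and LN shared a table of their own, with the same LN library as above, so both adipose libraries are set against the same reads. Tissue, obesity and the split in Xist and Ddx3y cannot be told apart in this contrast. Of 39 members measured, 10 were 2-fold higher in obese adipose and 16 2-fold lower, with a median of -0.69, against 41.8% higher and 23.7% lower of 14713 genes and a median of 0.44. In the mitosis class 9 of 21 were 2-fold lower and 4 higher (Cdk1, Bub1, Bub1b and Plk1), with a median of -0.69. In the S phase class 5 of 16 were 2-fold lower and 6 higher (Mcm2, Mcm3, Rrm1, Ccne1, Cdc6 and Cdt1), with a median of 0.22. That sign did not hold: it was -0.23 when ratios were centred on all measured genes and -0.20 with a minimum scaled count of 5. Ccnb2 was 4.44-fold lower (3.83 to 5.15), Cdca8 5.75-fold lower (4.74 to 7.04) and Kif11 36.6-fold lower (15.4 to 114), while Aurkb had an interval that spanned 1 (1.05-fold higher, 0.823 to 1.34). Of S phase genes, Mcm2 was 8.36-fold higher (5.79 to 12.4) and Rrm1 4.04-fold higher (3.29 to 5.001), and Pcna was 2.16-fold lower (2.05 to 2.28). The obese library listed all 11 macrophage and dendritic cell markers above 0, at 4899 CPM in sum.

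Obese and lean adipose were set on 1 scale through the LN library they share, the contrast of obesity at 4 months. Of 37 members measured, 21 were 2-fold higher in obese adipose and 3 2-fold lower, with a median of 1.48, against 32.9% higher and 19.1% lower of 14636 genes and a median of 0.15. In the mitosis class 14 of 19 were 2-fold higher, 3 were lower (Bub1, Birc5 and Kif23), and the median was 2.10. The 14 include Plk1, which had no value in lean adipose and was taken there as 0. Genes without a value were treated the same way over all genes. In the S phase class 7 of 16 were higher (Mcm2, Mcm5, Tk1, Ccne1, Ccne2, Cdc6 and Gins2), and the median was 0.59. None was 2-fold lower by the ratio with the added 1. Without the added 1, Rrm2 was 2.04-fold lower (1.67 to 2.51) and Tyms 1.34-fold lower (1.18 to 1.51). Ccnb2 was at least 81.2-fold higher and Cdca8 at least 43.9-fold higher in obese adipose, where lean adipose had no read of either. Mki67 was 2.19-fold higher (1.96 to 2.45) and Ube2c 6.62-fold higher (4.42 to 10.3). Top2a and Cenpa did not differ beyond counting error, at 1.14-fold lower (0.992 to 1.31) and 1.03-fold higher (0.963 to 1.10). Kif23 was 2.55-fold lower (2.24 to 2.92). Of the S phase genes, Mcm2 was 3.72-fold higher (2.85 to 4.91) and Ccne2 2.92-fold higher (2.35 to 3.66), whereas Mcm6 (1.01-fold lower, 0.906 to 1.13) and Cdt1 (1.07-fold higher, 0.942 to 1.22) were not separable. Macrophage and dendritic cell markers stood at 4899 CPM in obese and 887 in lean adipose, and fibroblast markers at 14.7 and 982.

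**Figure D3:**
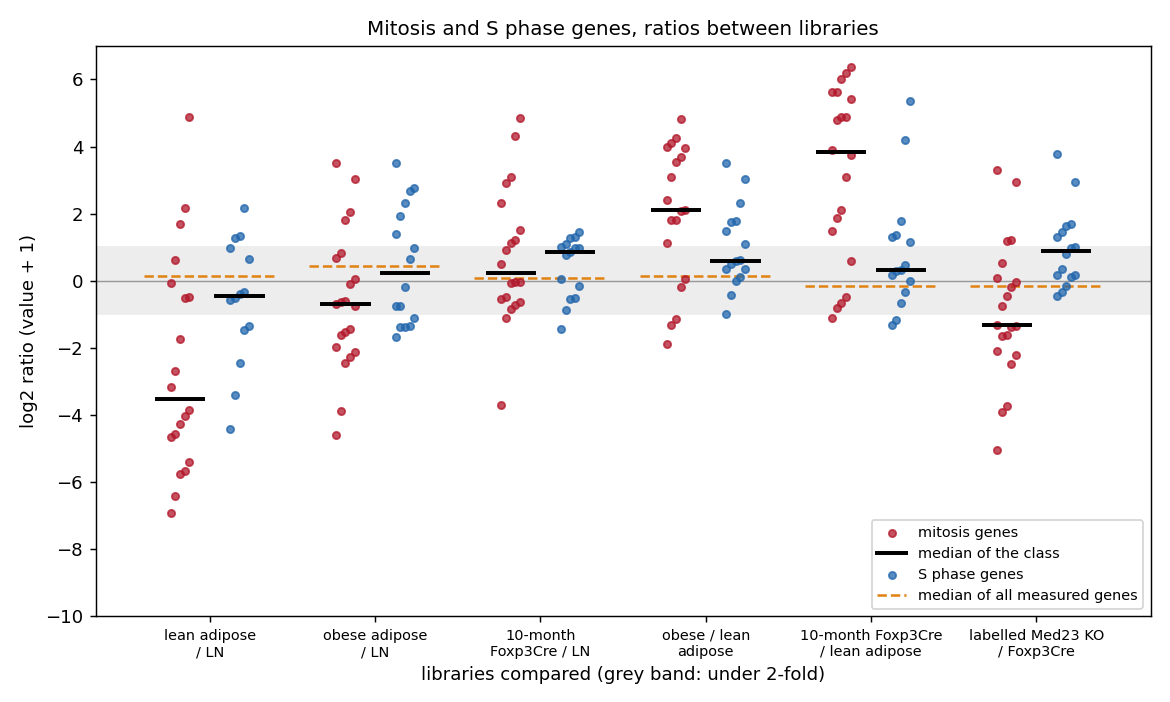
Log2 ratio of (value + 1) for each measured mitosis gene (red) and S phase gene (blue) in the 6 comparisons; black lines are class medians, dashed lines the median of all measured genes, and the grey band marks ratios under 2-fold. The mitosis median lies below the S phase median for lean adipose over LN (-3.52 and -0.45) and for the library labelled Med23 KO over Foxp3Cre (-1.31 and 0.88), and above it for 10-month Foxp3Cre over lean adipose (3.83 and 0.33). Every comparison with lean adipose uses the same lean library.

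The library labelled Med23 KO and 10-month Foxp3Cre were compared within the 10-month table, the contrast of genotype. The medians of the 2 classes lay on opposite sides of 0, while each class held genes on both sides. Of 39 members measured, 11 were 2-fold higher in the labelled library and 12 2-fold lower, with a median of -0.03, against 28.6% higher and 34.9% lower of 13549 genes and a median of -0.15. In the mitosis class 11 of 21 were 2-fold lower, 4 were higher (Ccnb1, Bub1b, Aurka and Cenpa), and the median was -1.31. In the S phase class 7 of 16 were 2-fold higher (Mcm3, Mcm4, Rrm1, Rrm2, Ccne1, Ccne2 and Cdc6), none was 2-fold lower, and the median was 0.88. Kif11 was 5.92-fold lower in the labelled library (4.54 to 7.83), Cdk1 4.76-fold lower (3.30 to 7.05) and Tpx2 18.3-fold lower (10.6 to 34.6). Aurkb had 276 reads in Foxp3Cre and 3 in the labelled library, 54.1-fold lower (18.3 to 264). The labelled library held 4595046 reads in all and Foxp3Cre 9650769. Mki67 and Top2a lay near 1, at 1.05-fold higher (0.986 to 1.12) and 1.02-fold lower (0.938 to 1.11) as deposited, and on equal column sums at 1.30-fold (1.22 to 1.39) and 1.21-fold higher (1.11 to 1.32). The mitosis genes thus ranged from 54.1-fold lower for Aurkb to at least 25.5-fold higher for Bub1b. On the S phase side, Cdc6 was 11.9-fold higher (6.77 to 22.6), Ccne1 at least 36.9-fold higher and Ccne2 3.32-fold higher (2.91 to 3.79). Mcm3 was 3.36-fold higher (2.56 to 4.45) and Mcm4 2.76-fold higher (2.47 to 3.09). Smaller differences depended on the scaling. Mcm6 was 1.11-fold lower as deposited (0.995 to 1.24) and 1.11-fold higher on equal sums (0.997 to 1.24), and its interval spanned 1 on both. Gins2 was 1.08-fold higher as deposited (0.842 to 1.39) and 1.34-fold higher on equal sums (1.04 to 1.71). Tk1 was 1.26-fold lower as deposited (1.05 to 1.51) and 1.02-fold lower on equal sums (0.851 to 1.22), where its call was lost. Pcna was lower on both, 1.36-fold (1.29 to 1.44) and 1.10-fold (1.04 to 1.16). Stmn1 was 19.4-fold lower (15.9 to 23.9). On columns rescaled to equal sums the class medians were -1.01 and 1.18, with the same signs. Of 36 members with an interval, 8 changed in whether it spanned 1: Mki67, Top2a, Mcm2, Tyms and Gins2 became higher, and Ccna2, Kif23 and Tk1 were no longer lower. Beside these values, the labelled library held 4667 CPM of erythroid markers against 698, and 108 CPM of macrophage and dendritic cell markers against 658.

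**Figure D4:**
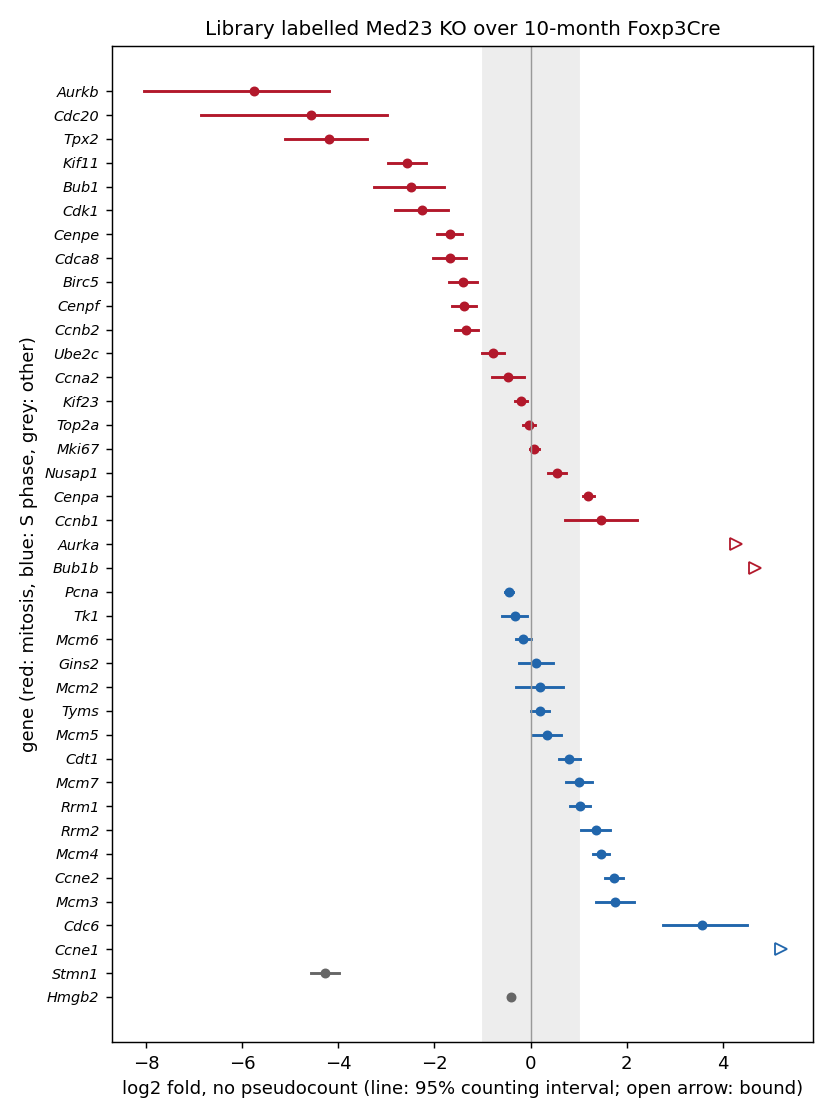
Log2 fold of the library labelled Med23 KO over 10-month Foxp3Cre for each of the 39 measured genes (rows), without pseudocount; lines are exact 95% counting intervals and open arrows mark the 3 genes with a bound. S phase genes lie between Pcna, 1.36-fold lower, and the bound of Ccne1, at least 36.9-fold higher, and most mitosis genes lie left of 0.

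The 10-month Foxp3Cre adipose library came from another table than LN and lean adipose, so it was compared on columns rescaled to CPM. Age and table cannot be told apart in these contrasts, nor can tissue in the contrast with LN, or the split in Xist and Ddx3y in that with lean adipose. Against LN, 13 of 37 members measured were 2-fold higher in 10-month adipose and 3 2-fold lower, with a median of 0.50, beside 34.3% higher and 29.8% lower of 13187 genes and a median of 0.10. The count of higher members was thus near the share over all genes. Of 20 mitosis genes 8 were 2-fold higher (Top2a, Cdk1, Bub1, Cenpe, Cenpf, Kif11, Kif23 and Tpx2). The 2 lower were Ccnb1 and Bub1b, of which Bub1b had only 11 reads in LN and none in 10-month Foxp3Cre. The median of the class was 0.24. That median was 0.50 with a minimum value of 5 and 1.02 without the genes that share sequence, and the further mitosis genes had a median of -0.21. Of 15 S phase genes 5 were higher (Mcm2, Mcm6, Rrm1, Tk1 and Cdc6), also near the share over all genes. Cdc6 had only 14 reads in 10-month Foxp3Cre and none in LN. Rrm2 was lower, and the S phase median was 0.85. Cenpf was 9.43-fold higher (7.42 to 12.2) and Kif11 2.94-fold higher (2.51 to 3.45), while Ccnb1 was 17.5-fold lower (11.8 to 27.0). Against 4-month lean adipose, 22 of 37 members were 2-fold higher and 3 2-fold lower, with a median of 1.48, beside 28.5% higher and 32.7% lower of 13879 genes and a median of -0.17. Of 20 mitosis genes 15 were 2-fold higher, with a median of 3.83. Bub1b was lower, on 10 reads in lean adipose and none in 10-month Foxp3Cre. Of 15 S phase genes 6 were higher, 2 were lower (Mcm3 and Rrm2), and the median was 0.33. Ccnb2 was at least 233-fold higher, Kif11 at least 181-fold higher and Mki67 4.35-fold higher (3.94 to 4.80) in 10-month adipose. Bub1 ran the other way, at 1.602-fold lower (1.32 to 1.95).

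Other genes of the same pathways were read from 3 lists: 55 further mitosis genes, 55 further DNA replication genes and 35 G1 regulators. In lean adipose over LN, 26 of 47 measured mitosis genes were 2-fold lower and 8 higher (median -1.28), against 21 lower and 14 higher of 52 replication genes (median -0.61) and 8 lower and 9 higher of 28 G1 genes (median 0.28), beside 32.1% lower and 37.6% higher over all genes. In the library labelled Med23 KO over Foxp3Cre, 23 of 48 further mitosis genes were 2-fold lower and 7 higher (median -0.97), beside 34.9% lower and 28.6% higher over all genes. There 11 of 54 replication genes were lower and 16 higher (median 0.08), the latter about the share over all genes, and 11 of 33 G1 genes were lower and 8 higher (median -0.28), both near those shares. In obese over lean adipose, 19 of 47 mitosis genes were higher and 8 lower (median 0.67), with 19 higher and 8 lower of 51 replication genes (median 0.33) and 7 higher and 5 lower of 32 G1 genes (median -0.10), beside 32.9% higher and 19.1% lower over all genes. The further mitosis genes thus lay on the same side as the mitosis members in these 3 comparisons, with smaller medians. Lean over LN and obese over lean adipose use the same lean library. In obese adipose over LN the 3 lists had medians of -0.81, -0.13 and 0.01, and in 10-month Foxp3Cre over LN -0.21, -0.07 and 0.37. In 10-month Foxp3Cre over lean adipose 25 of 47 further mitosis genes were higher and 6 lower (median 1.23), beside 28.5% and 32.7% over all genes, with medians of 0.32 and 0.20 for the replication and G1 lists.

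Among the further genes with the widest range over the libraries, Spc25, a subunit of the NDC80 kinetochore complex, was at 123 CPM in LN, 0 in lean and 20.5 in obese adipose, 45.2 in 10-month Foxp3Cre, and at 33.5 in the library labelled Med23 KO. Hmmr, a spindle protein, was at 99.0, 0, 9.20, 66.1 and 34.4 CPM in the same order. Both had the order of Ccnb2, with LN highest and lean adipose at 0. Spc24, the partner of Spc25, ranged from 0 to 40.6 CPM, and Ckap5, a microtubule polymerase, from 0 to 111, with lean adipose at 0 for both. Asf1b, a histone chaperone counted in the mitosis list, was instead highest in lean adipose, at 55.7 CPM. Rpa3, a subunit of the single-strand DNA binding protein RPA, was at 0 in the library labelled Med23 KO and 51.8 to 129 CPM elsewhere. Orc1, the large subunit of the origin recognition complex, was at 50.3 CPM in the labelled library and 0 to 10.8 elsewhere. Rfc3, a subunit of the clamp loader, was at 0 CPM in lean adipose and 28.1 to 73.4 elsewhere, and Clspn, claspin of the replication checkpoint, at 1.05 and 21.9 to 90.1. Wdhd1, which links helicase and polymerase, was at 0 in LN and highest in the labelled library, at 51.4 CPM. Of the G1 regulators, Cdkn1a, the CDK inhibitor p21, was at 8.46 CPM in LN, 152 in lean and 172 in obese adipose, 218 in 10-month Foxp3Cre, and at 71.6 in the library labelled Med23 KO, so all 4 adipose libraries were above LN. Ccnd3, cyclin D3, was at 220, 67.8, 36.0, 15.0 and 42.9 CPM and its partner Cdk4 at 202, 44.8, 49.6, 81.2 and 89.4 CPM, so both were highest in LN. Cdk6, the other kinase of D-type cyclins, was at 33.5, 144, 131, 31.9 and 114 CPM, with LN and 10-month Foxp3Cre low. E2f8, a repressor among E2F factors, was at 49.4 CPM in the library labelled Med23 KO, 6.80 in obese adipose and 0 in the other 3. Cdk2, the kinase of cyclin E, ranged from 0 CPM in LN to 35.5 in 10-month Foxp3Cre, and Tfdp2, an E2F partner, from 2.18 in the labelled library to 56.9 in lean adipose. Ccnd2, cyclin D2, ranged from 264 to 603 CPM, with lean adipose highest, and the CDK inhibitors Cdkn1b and Cdkn2c from 39.2 to 58.0 and from 9.79 to 33.1. Ccnd1 and E2f1 were each above 0 in 1 library, at 1.20 CPM in obese adipose and 3.70 CPM in the labelled library.

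Some members share sequence with other genes, and the authors' treatment of reads that match more than 1 gene is not stated in the sources at hand. By 50-base stretches of GENCODE transcripts, 13 of the 41 shared over 10% of their stretches with another gene: Ccna2, Ccnb1, Plk1, Cdc20, Kif20a, Ube2c, Mcm7, Pcna, Tyms, Ccne2, Gins2, Hmgb2 and Stmn1. Their values are uncertain in that sense. Without them, the mitosis median in lean adipose over LN was -2.21 and the S phase median turned to 0.65. In obese adipose over LN the S phase median without them was 1.39 and the mitosis median -0.62. In the library labelled Med23 KO over Foxp3Cre, mitosis stood at -1.35 and S phase at 1.01, and in 10-month Foxp3Cre over LN the mitosis median stood at 1.02 in place of 0.24. Mki67, Ccnb2, Cdk1, Cdca8, Kif11, Cdc6 and Mcm4 are among the genes that keep their place in these reduced lists.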

How the data were processed

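Sorted Treg RNA from 5 libraries, 1 per group, was sequenced once. TopHat2 2.0.9, Bowtie2 2.0.6 and the build mm8 are listed, without roles, per the submitters' processing notes. The sources used here do not give the counter, annotation or strand setting. Overlapping and antisense genes could therefore not be told apart. The authors deposited 3 tables of 2 libraries each (49671 IDs at 4 months, 47069 at 10 months) with a scaled read count per gene, the signal used here. The deposited tables also hold a log2 fold change, a p-value and a q-value, which the authors computed between single libraries. No p-value or q-value is reported. From the values, 100% of nonzero deposited values were whole multiples of 1 step per library (tolerance 0.01 read), and values under 1 were listed as 0, so the smallest listed stood for 6 to 10 reads. For genes listed at 0, reads were recovered from the log2 fold change in the authors' deposited table (3776 of 3776 whole, tolerance 0.02). No count model was fitted to scaled values.

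Ratios were log2((value + 1)/(value + 1)) for genes whose larger value was 1 or more, with 2-fold as the threshold. In comparisons across tables, a gene with no value in a library was taken there as 0. Intervals were exact (Clopper-Pearson, 95%) and cover counting error only. A gene without reads took a floor of 3 reads. IDs were matched to symbols by GENCODE M21 names (98.8% of IDs matched). Promoters were RefSeq entries on GRCm38.p6 and no coordinate was moved between builds. Scripts ran in Python 3.11.15 with scipy 1.17.1, numpy 2.4.6, matplotlib 3.10.9 and pandas 2.3.3 and were tested on simulated data. The members and lists were chosen with earlier results of these data known. All members were named, plus, of each further list, the 5 genes with the widest range, and the chief cyclins, kinases and inhibitors of G1. Alternatives were the pseudocount, the minimum value, the scaling, centring on all genes and, chosen after seeing the data, recovered reads in place of zeros.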

Additional observations from a re-analysis of the deposited data

Results flagged for a closer look

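The lean, obese and 10-month Foxp3Cre adipose libraries were compared with each other in their ratios to LN, without the library labelled Med23 KO. For 6 members, 1 of these libraries lay on the other side of LN from another, each by 2-fold or more. How many of all genes met the same rule was not counted, so the number only describes the members. The values are log2 ratios of (CPM + 1) to LN. All use the same LN library, each library is a single sample, and the difference was not tested. Cenpe stood at 2.31 in 10-month Foxp3Cre and -2.56 in lean adipose, a difference of 4.88. Cenpf stood at 3.08 and -3.11, a difference of 6.19. Kif11 stood at 1.51 in 10-month Foxp3Cre and -4.50 in lean and in obese adipose, a difference of 6.01 each time. Tpx2 stood at 1.21 and -4.21 in lean adipose, a difference of 5.42. Tk1 stood at 1.004 in 10-month Foxp3Cre, -4.34 in lean adipose and -1.22 in obese adipose, differences of 5.35 and 2.22. Bub1b stood at -1.09 in 10-month Foxp3Cre and 2.18 in obese adipose, a difference of -3.27. It had 11 reads in LN, 65 in obese adipose and none in 10-month Foxp3Cre, so the size of the -1.09 is set by the added 1. Cenpf, Kif11, Tpx2 and Tk1 in lean adipose, and Kif11 in obese adipose, were listed at 0. The sizes of those ratios are therefore set by the LN level and the added 1. Recovered reads were 4 for Cenpf in lean adipose, 5 for Kif11 in obese adipose and none for the rest.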

How the results depend on the processing

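Class medians moved by more than the median counting error of a single gene's ratio in these cases. With a pseudocount of 0.1, the mitosis median was -5.68 in lean adipose over LN, 2.75 in obese over lean adipose and 5.10 in 10-month Foxp3Cre over lean adipose. With a minimum of 5, it was -3.95 in lean adipose over LN, 0.50 in 10-month Foxp3Cre over LN and 4.36 over lean adipose, and the S phase median in obese adipose over LN was -0.20. Centred on all measured genes, obese adipose over LN gave -1.13 for mitosis and -0.23 for S phase. With equal column sums, the library labelled Med23 KO over Foxp3Cre gave -1.01 for mitosis and 1.18 for S phase. With recovered reads in place of zeros, chosen after seeing the data, lean adipose over LN gave -3.06 for mitosis. The S phase median of obese adipose over LN thus has no stable sign, and the cause was not tested. Counts of 2-fold members stayed within 1.5 times under the alternatives run. No paired analysis was possible because each group is 1 library, and no replicate could be left out. Depth limits genes under 6 to 10 reads, which the tables list as 0.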
